A study of Homo sapiens with 5 samples.

Results

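The 9 genes described here encode the interleukin-1 ligands IL1A and IL1B, the inhibitors NFKBIA and TNFAIP3, the NF-kB subunits NFKB1, NFKB2 and RELB, the ubiquitin ligase BIRC3 and the adhesion receptor ICAM1. They were taken by gene symbol from a table of raw read counts for 25382 genes, and all 9 had a row. The table covers 5 sequencing libraries of MDA-MB-231, an established human breast cancer cell line that lacks oestrogen receptor. The cells grew in DMEM with fetal bovine serum, and shear stress applied to the mixed population parted them into weakly adherent cells (3 libraries, whose titles carry the dates 6, 12 and 15 March) and strongly adherent cells (2 libraries, 6 and 15 March). No genotype, drug or time course separates the groups. Both came from the same line, and the shear itself parted them. What the cells were before the shear, what they did during it and how each group was collected therefore cannot be told apart. Whether the libraries came from separate cultures is not stated, and the p-values then measure the spread between these libraries, which may be technical.

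Interleukin-1 binds its receptor on the cell surface and, through adaptor proteins and kinases, activates the IkB kinase complex. That complex marks IkB proteins for destruction, which frees NF-kB dimers to enter the nucleus and switch on their target genes. Several of those targets act back on the pathway: NFKBIA encodes IkB alpha, which returns the dimers to the cytoplasm, TNFAIP3 encodes a ubiquitin-editing enzyme that shuts the upstream signal off, and NFKB1, NFKB2 and RELB encode subunits of the dimers. MDA-MB-231 is known for constant NF-kB activity. ICAM1, the intercellular adhesion molecule that leukocyte integrins bind, is a classic target of this pathway in epithelial and endothelial cells.

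Letters of the NF-kB motif stand in the promoters of several members. The short DNA runs below are shown because they hold letters that NF-kB dimers are known to favour, in genes whose RNA levels are compared afterwards. Of the 9 genes, 8 matched RefSeq's promoter windows by symbol (build GRCh38.p14, 250 bases before to 50 bases after an annotated start, 12 windows in all), and RELB did not. The motif searched, on both strands, was GGNNTTTCC, which was chosen after these windows had been read. Capitals mark the match, on either strand.
NFKBIA: ggtcggaaGGACTTTCCagccactcgg
NFKBIA: tgactggcttGGAAATTCCccgagcctga
TNFAIP3: ctttGGAAAGTCCcgtGGAAATCCCcggg
NFKB1: gacgtcagtgGGAATTTCCagccaggaag
NFKB2: ggccgagaagGGGCTTTCCcggccctgag
NFKB2: ggtattttcgGGACTTTCCtaagctgctc
BIRC3: tttgggtcatGGAAATCCCcgagtgggtt
ICAM1: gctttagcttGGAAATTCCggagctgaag

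The NFKBIA runs are chr14:35404973-35404999 and chr14:35404812-35404840 on the minus strand, and their matches begin 242 and 81 bases before the start. The TNFAIP3 run, with 2 matches side by side, is chr6:137867188-137867216 on the plus strand, and the NFKB1 run is chr4:102501301-102501329 on the plus strand. The NFKB2 runs precede 2 different annotated starts, at chr10:102394491-102394519 and chr10:102395675-102395703, both on the plus strand. The BIRC3 run is chr11:102317275-102317303 and the ICAM1 run chr19:10270924-10270952, both on the plus strand, 199 and 186 bases before the start at their first matching base. The motif stood in 7 of the 12 windows of the members, in 6 of the 8 genes, and in 6.26% of all 35116 promoter windows. Since it was chosen from the members' windows, nothing can be read from that contrast. The windows of IL1A and IL1B did not hold it. A match is a run of letters and no measurement of binding.

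The libraries held 19630386 to 21707459 reads assigned to genes, and levels are given as CPM, the reads of a gene scaled to library size, after TMM scaling, a normalisation that compares libraries through the bulk of their genes. The cell line label was checked on markers. VIM lay between 2458 and 2746 CPM, and ESR1 and PGR had 0 reads in every library, which allows up to 3 reads or 0.136 to 0.153 CPM. ERBB2 (82.8 to 93.9 CPM) and EPCAM (19.4 to 25.8 CPM) were present. Leukocytes and endothelial cells are rich sources of these cytokines and of ICAM1, so 11 of their markers were read as well: CD3E, MS4A1 and NKG7 were among those at 0 in all libraries, PTPRC had 12 reads in all, and the summed level of the list was 8.19 to 8.45 CPM in strongly and 8.74 to 11.8 CPM in weakly adherent cells, most of it CSF1R (5.13 to 8.23 CPM). Its members went both ways: of 4 that could be tested, edgeR called 0, and 3 had an unadjusted p under 0.05, with log2 fold changes (weakly minus strongly adherent) of 0.39 for CSF1R, 0.80 for PECAM1 and -0.68 for CD14 (DESeq2 and limma-voom called 0). Their part in the results was not tested.

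In weakly adherent cells the RNA of ICAM1 was 1.38 times lower, and this was the 1 member that passed the test over all genes. The log2 fold change (weakly minus strongly adherent) was negative for all 8 members that could be tested, from -0.09 for NFKB1 to -0.75 for IL1A, with a median of -0.26 against -0.00054 for all 13297 genes tested. By edgeR's quasi-likelihood fit 1 of 8 members was called lower at an adjusted p under 0.05, where 0.918% of all genes were, and 0 were called higher, where 1.77% of all genes were (0 members higher at an unadjusted p under 0.05, and 0 by DESeq2 and by limma-voom). At an unadjusted p under 0.05 there were 7 of 8 members, where 14.2% of all genes were. The members and the lists below were chosen with earlier results of these data known. Their contrasts with all genes, here and below, may therefore partly reflect that choice. With the date as a block, 6 of 8 were called lower, where 5.28% of all genes were, and 0 higher, where 6.20% were. The 6 were ICAM1, BIRC3, NFKBIA, NFKB2, RELB and TNFAIP3. The block compares the libraries within 6 March and within 15 March, gives the weakly adherent library of 12 March no weight, and leaves 1 residual degree of freedom. Its p-values therefore rest mostly on a variance shared across genes, not on each gene's own libraries. Very small ones read firmer than these libraries allow. IL1B had too few reads to be tested. In bulk RNA, fewer cells that express a gene and less of its RNA per cell cannot be told apart.

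**Figure D1:**
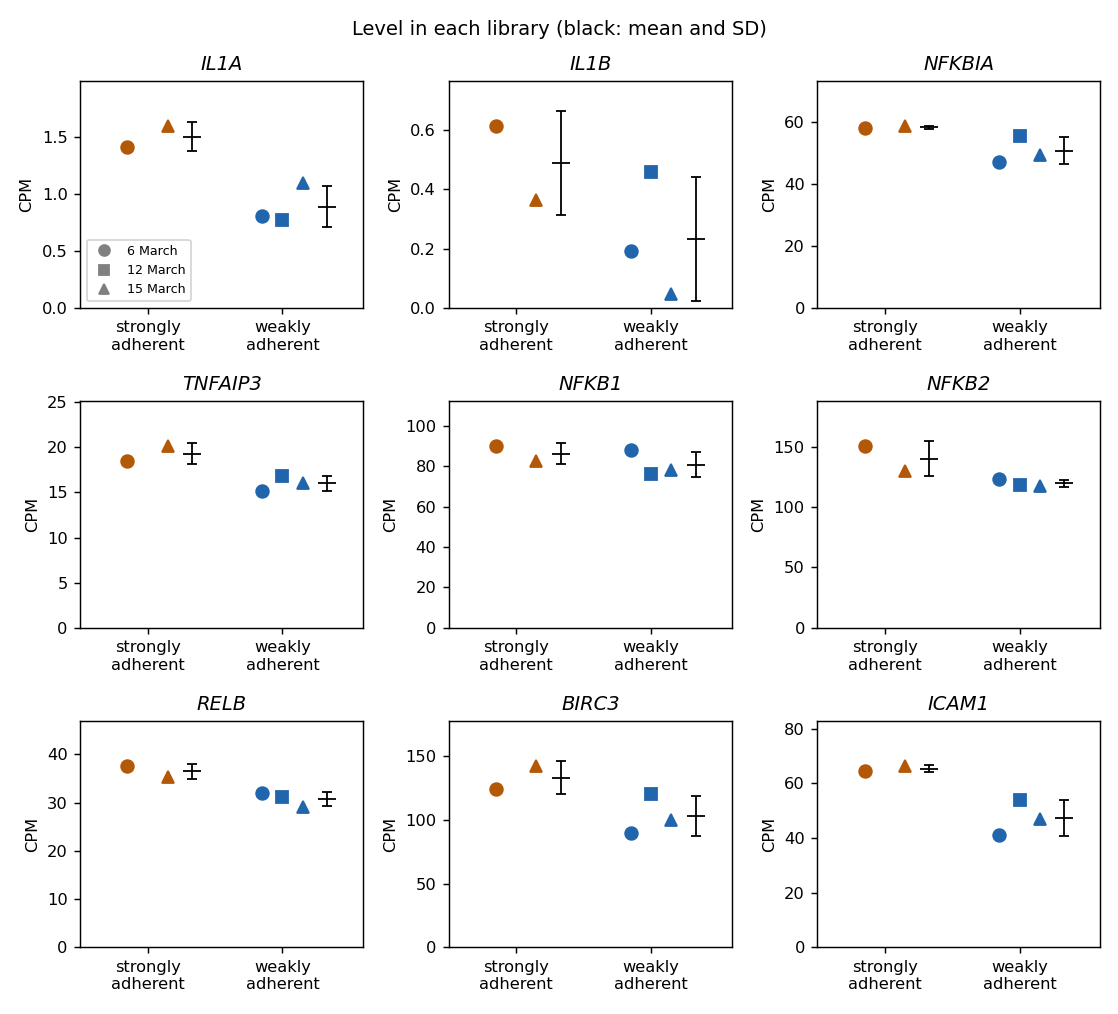
Level of each of the 9 genes in CPM (y axis, from 0) in the 2 strongly adherent (orange) and 3 weakly adherent (blue) libraries; circles are 6 March, squares 12 March and triangles 15 March, and the black bar is the group's mean with its SD. All weakly adherent points lie under both strongly adherent ones except for IL1B and NFKB1, where the groups overlap.

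ICAM1 was at 64.5 and 66.4 CPM in strongly adherent cells of 6 and 15 March, and at 41.1, 54.0 and 47.1 CPM in weakly adherent cells of 6, 12 and 15 March. Both strongly adherent libraries thus stood close together and above all weakly adherent ones, of which that of 12 March was nearest to them. The means were 65.5 ± 1.32 CPM (SD, n = 2) and 47.4 ± 6.45 CPM (SD, n = 3), and ICAM1 fell by 0.47 on the log2 scale (SE 0.10, 95% interval -0.69 to -0.24, edgeR adjusted p = 0.037). With the date block the log2 fold change was -0.57 (SE 0.08, edgeR adjusted p = 6.2e-12). The call depended on single libraries: leaving out either strongly adherent library ended it (edgeR adjusted p = 0.14 without 6 March and 0.17 without 15 March), as did leaving out the weakly adherent one of 6 March (0.053) or of 15 March (0.13). It stood when that of 12 March was left out (0.013). In GENCODE release 29 1 antisense gene shares 815 bases and another 61 bases with exons of ICAM1, and 95 bases of TNFAIP3 are shared with an antisense gene. The library kit keeps the strand, but whether the counting used it is not stated. If it did not, reads of both strands are added up there.

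BIRC3 encodes a ubiquitin ligase of the tumour necrosis factor receptor complex that protects cells from apoptosis and restrains the alternative NF-kB route. Its levels were 124.1 and 142.1 CPM in strongly adherent cells on 6 and 15 March, and 89.3, 119.8 and 99.5 CPM in weakly adherent cells on 6, 12 and 15 March. The weakly adherent library of 12 March came close to the lower strongly adherent one, and the other 2 lay well under it. The means were 133 ± 12.8 CPM (SD, n = 2) and 103 ± 15.5 CPM (SD, n = 3), a log2 difference of -0.37 (SE 0.12, adjusted p = 0.18 in edgeR), or -0.49 with the date block (SE 0.07, adjusted p = 2.7e-11). Without the library of 12 March and with no block, BIRC3 was called as well (log2 fold change -0.50, edgeR adjusted p = 0.027). In that setting 2 of the members, ICAM1 and BIRC3, were called lower, against 0.423% of all genes. BIRC3 was not called without the weakly adherent library of 6 March (-0.28, edgeR adjusted p = 0.21) or of 15 March (-0.34, edgeR adjusted p = 0.35). Leaving out a strongly adherent library leaves a single one in that group. The log2 fold change of BIRC3 was then -0.47 without 6 March and -0.27 without 15 March.

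Both feedback inhibitors, NFKBIA and TNFAIP3, were called lower with the date block and not without it. NFKBIA was at 57.9 and 58.5 CPM in strongly adherent cells (6 and 15 March), and at 47.0, 55.4 and 49.2 CPM in weakly adherent cells (6, 12 and 15 March). TNFAIP3 was at 18.5 and 20.1 CPM and at 15.1, 16.8 and 16.1 CPM in the same order. For both genes the 3 weakly adherent libraries lay under both strongly adherent ones, and the library of 12 March was the highest of the 3. The log2 fold change of NFKBIA was -0.20 (SE 0.09, edgeR adjusted p = 0.32), or -0.27 with the date block (SE 0.08, edgeR adjusted p = 0.0052). That of TNFAIP3 was -0.27 (SE 0.11, edgeR adjusted p = 0.25), or -0.31 with the date block (SE 0.11, edgeR adjusted p = 0.039). The 95% intervals were -0.40 to -0.01 for NFKBIA and -0.50 to -0.04 for TNFAIP3, and with the block -0.42 to -0.12 and -0.52 to -0.10. Whether these genes differed from ICAM1 or BIRC3 in the size of the change was not tested.

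Among the subunit genes, NFKB2 and RELB, the partners of the alternative NF-kB dimer, were separated by group and NFKB1 was not. NFKB2, which encodes a precursor cut to a DNA-binding subunit, was at 150.4 and 129.8 CPM in strongly adherent cells on 6 and 15 March, and at 123, 118 and 117 CPM in weakly adherent cells on 6, 12 and 15 March. The weakly adherent libraries were close together, and the strongly adherent ones were farther apart. RELB was at 37.6 and 35.4 CPM and at 32.0, 31.3 and 29.1 CPM in the same order, with no overlap either. The log2 fold change was -0.23 for NFKB2 (SE 0.08, edgeR adjusted p = 0.18; with the date block -0.22, adjusted p = 0.014). For RELB it was -0.25 (SE 0.09, edgeR adjusted p = 0.21; with the date block -0.26, adjusted p = 0.028). NFKB1, the precursor of the subunit that pairs with RELA, was at 89.9 and 82.5 CPM in strongly and at 87.8, 76.3 and 78.1 CPM in weakly adherent cells. Its libraries overlapped, and its log2 fold change of -0.09 (SE 0.08, 95% interval -0.28 to 0.09, edgeR adjusted p = 0.73; with the date block -0.06, adjusted p = 0.73) had an interval that spans 0.

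The ligand genes were near the limit of detection. IL1A had 30 and 35 reads in strongly adherent cells of 6 and 15 March, and 17, 15 and 24 reads in weakly adherent cells of 6, 12 and 15 March. In CPM these were 1.41 and 1.59 against 0.808, 0.766 and 1.09, so the groups did not overlap. Summed over libraries, the weakly adherent level was 0.595 times the strongly adherent one, with an exact 95% interval of 0.409 to 0.864 that covers counting error only. Within 6 March the interval was 0.296 to 1.07 and within 15 March 0.390 to 1.19, both of which include 1. With the spread between libraries the log2 fold change was -0.75 (SE 0.29, 95% interval -1.37 to -0.12, edgeR adjusted p = 0.24), and -0.66 with the date block (SE 0.33, edgeR adjusted p = 0.22). IL1A had the largest fitted difference of the 8 tested members and also the widest interval.

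IL1B, the ligand that must be cut by caspase-1 before release, had 13 and 8 reads in strongly adherent cells and 4, 9 and 1 in weakly adherent cells, in the same order of dates. The groups overlapped, because the library of 12 March exceeded the strongly adherent one of 15 March. The summed ratio was 0.46, with an exact 95% interval of 0.217 to 0.949 for counting error. On 6 March, with 4 reads against 13, the ratio was 0.311 and its interval of 0.0738 to 1.01 included 1. On 15 March, with 1 read against 8, the ratio was 0.125 and its interval ran from 0.00282 to 0.932. When edgeR was run with no filter on low counts, IL1B had a log2 fold change of -1.10 with an SE of 0.60 (95% interval -2.32 to 0.12, adjusted p = 0.52).

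**Figure D2:**
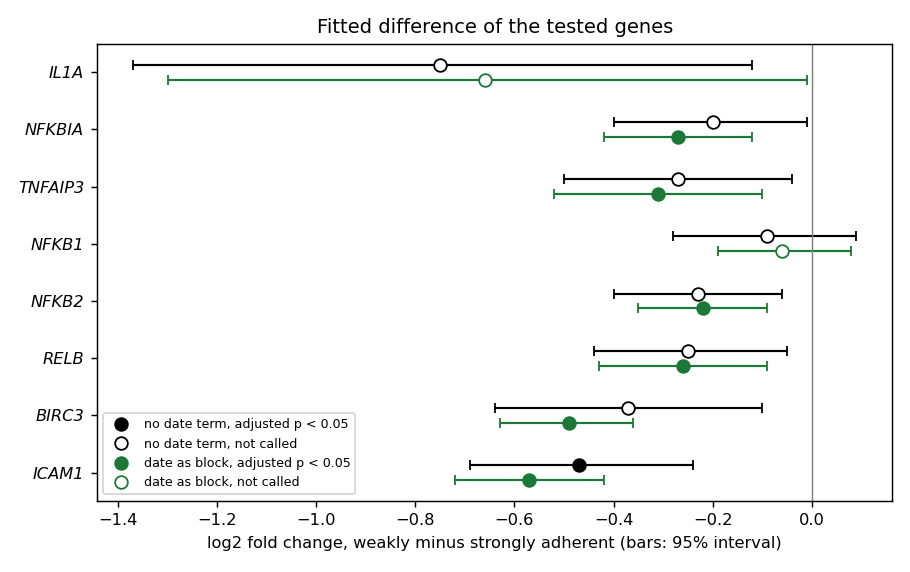
Fitted log2 fold change (x axis, weakly minus strongly adherent) of the 8 tested genes with its 95% interval, without a date term (black) and with the date as a block (green); filled points have an adjusted p under 0.05. Only ICAM1 is filled in black, 6 genes are filled in green, and IL1A and NFKB1 are open in both.

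Within the dates that both groups share, every member was lower in the weakly adherent library, also IL1B, where 31.0% of all genes tested were lower on both dates. For the 7 members whose groups did not overlap this follows from that, so only NFKB1 and IL1B add to it. ICAM1 in weakly adherent cells reached 63.7% of the strongly adherent level on 6 March and 70.9% on 15 March, and BIRC3 72.0% and 70.0%. Of the inhibitors, NFKBIA reached 81.2% and 84.2%, and TNFAIP3 81.9% and 79.9%. RELB was at 85.0% and 82.2%, NFKB2 at 81.9% and 90.4%, and NFKB1 at 97.7% and 94.8%. IL1A was at 57.2% and 68.6%. On both dates the ligands, ICAM1 and BIRC3 had the lowest shares and NFKB1 the highest. These are ratios of single libraries and have no test.

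The weakly adherent library of 12 March has no strongly adherent partner. Set against the mean of both strongly adherent libraries, it lay at a log2 ratio of -0.07 for NFKBIA, -0.15 for BIRC3, -0.20 for TNFAIP3 and -0.28 for ICAM1, nearer to 0 than either dated pair for each of these genes. So it did for IL1B (-0.09), the gene with the fewest reads. For NFKB1 (-0.18) it lay farther from 0 than either pair, as it did for IL1A (-0.97), for NFKB2 (-0.25) between them, and for RELB (-0.22) just nearer to 0. This library also had the fewest reads, 19630386. Its part in the results was measured by leaving it out: members called lower went from 1 to 2. The share of all genes called lower went from 0.918% to 0.423%. With any other library left out, members called lower went from 1 to 0.

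**Figure D3:**
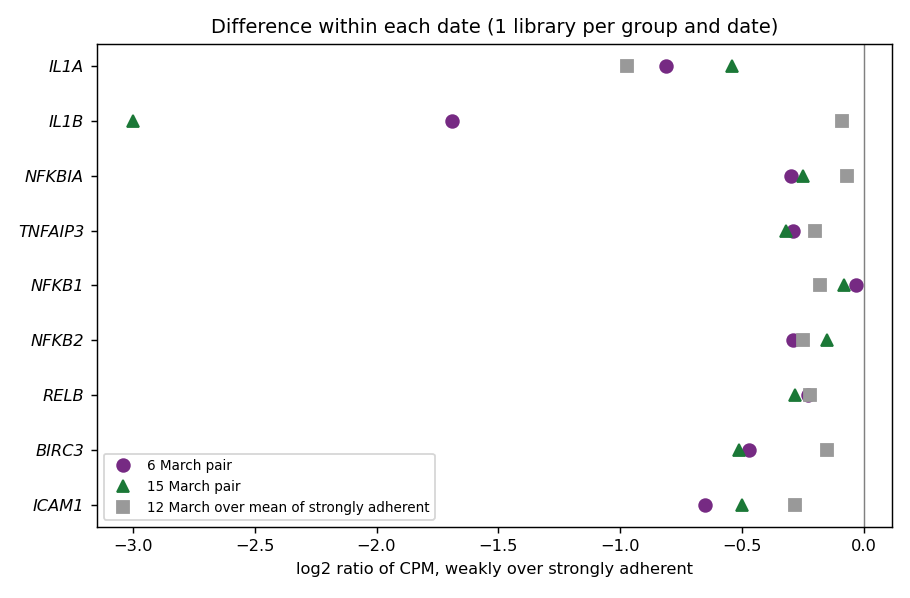
Log2 ratio of CPM (x axis, weakly over strongly adherent) within 6 March (circles) and within 15 March (triangles), and of the weakly adherent library of 12 March over the mean of both strongly adherent ones (squares), for the 9 genes. All points lie left of 0, and for IL1B, NFKBIA, TNFAIP3, RELB, BIRC3 and ICAM1 the square lies to the right of the circle and the triangle.

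Over all 5 libraries the 3 weakly adherent ones lay under both strongly adherent ones in 7 of the 8 tested members, NFKB1 being the exception, against 14.5% of all genes tested. Leaving out each library in turn kept a negative log2 fold change in all 40 fits of the 8 members. For the 7 without overlap this sign follows from the lack of overlap, so only the fits of NFKB1 could readily have turned.

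The members differed in how they varied over the libraries. The likeness of 2 genes was measured as the root mean square difference, over the 5 libraries, of log2 CPM centred on each gene's own mean. NFKB2 and RELB were each other's nearest member at 0.0511, NFKBIA and TNFAIP3 at 0.0593, and BIRC3 and ICAM1 at 0.0715. NFKB1 was nearest to NFKB2 (0.0835). Between the inhibitors, the subunits, and BIRC3 with ICAM1, the differences ran from 0.0969 (NFKBIA and RELB) to 0.271 (NFKB1 and ICAM1), the smallest of them close to the 0.0945 between NFKB1 and RELB. In BIRC3 and ICAM1 the centred values ran from -0.34 and -0.39 (weakly adherent, 6 March) to 0.33 and 0.31 (strongly adherent, 15 March). In NFKB2 and RELB they ran from -0.12 and -0.18 (weakly adherent, 15 March) to 0.24 and 0.19 (strongly adherent, 6 March). These are descriptions over 5 libraries that share their scaling, and genes that vary little come out close to each other by this measure.

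**Figure D4:**
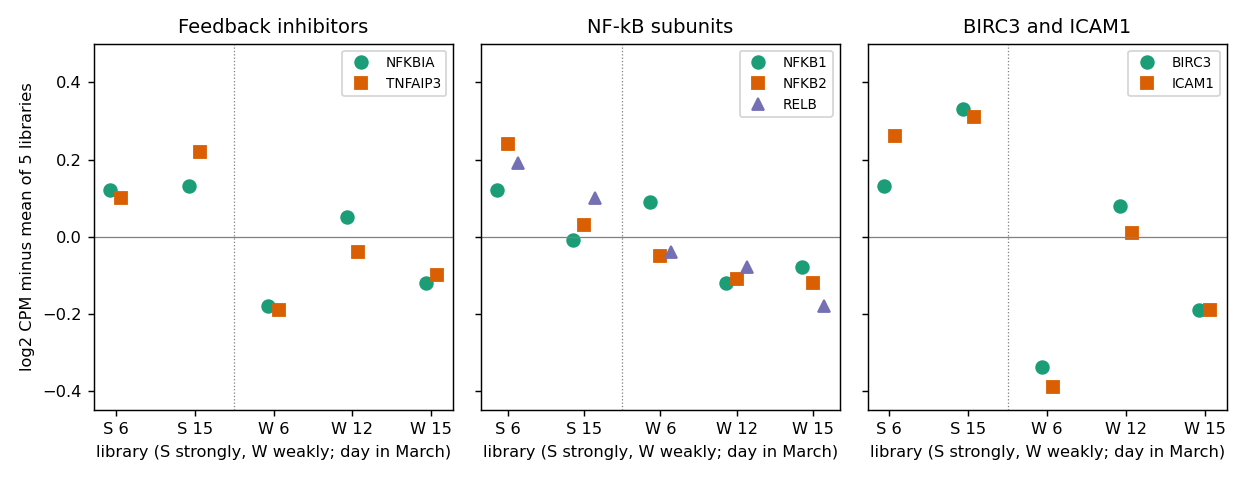
Log2 CPM of each gene minus its mean over the 5 libraries (y axis) in the strongly (S) and weakly (W) adherent libraries, labelled by day in March (x axis), for the inhibitors, the subunits, and BIRC3 with ICAM1. The highest point of BIRC3 and ICAM1 is S 15 and the lowest W 6, while NFKB2 and RELB are highest in S 6 and lowest in W 15.

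Between the dates, with adhesion as a covariate in the 4 libraries of 6 and 15 March, edgeR called 0 of the 8 tested members, where 2.55% of all genes were called lower and 6.74% higher on 15 March. At an unadjusted p under 0.05 there were 3, and DESeq2 called 0. BIRC3 had a log2 difference (15 minus 6 March) of 0.17 (SE 0.07, edgeR adjusted p = 0.096). NFKB1 had -0.15 (SE 0.07, edgeR adjusted p = 0.18) and NFKB2 -0.14 (SE 0.07, edgeR adjusted p = 0.18). The sign was the same in both adhesion groups for each of these 3 genes: 0.20 and 0.16 for BIRC3, -0.12 and -0.17 for NFKB1, and -0.21 and -0.07 for NFKB2, in strongly and weakly adherent cells.

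Per kilobase of the GENCODE transcript with the longest coding sequence, which may not be the one these cells use, NFKB2 had the highest level in strongly adherent cells (45.2 ± 4.68 CPM per kilobase, SD, n = 2), followed by NFKBIA (37.3 ± 0.27), BIRC3 (25.6 ± 2.46), NFKB1 (21.1 ± 1.29), ICAM1 (20.1 ± 0.41), RELB (15.9 ± 0.68), TNFAIP3 (4.07 ± 0.25), IL1A (0.707 ± 0.059) and IL1B (0.299 ± 0.11). The libraries of NFKB1 and ICAM1 overlapped in this scale, and no other neighbours did. The order was the same in weakly adherent cells, from NFKB2 (38.5 ± 1.02 CPM per kilobase, SD, n = 3) to IL1B (0.142 ± 0.13). There BIRC3 (19.8 ± 2.99) overlapped with NFKB1 (19.8 ± 1.52), and ICAM1 (14.6 ± 1.98) with RELB (13.4 ± 0.65). The inhibitor gene NFKBIA thus had a far higher level per length than TNFAIP3, and the ligand genes were the lowest of all.

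Most other genes of the pathway were not called. Over 7 pathway lists, 85 further genes were tested. Of these, 3 were called lower and 0 higher by edgeR (0.918% and 1.77% of all genes were called lower and higher), 16 had an unadjusted p under 0.05, 2 of them higher, where 14.2% of all genes did, and DESeq2 and limma-voom each called 3. With the date block, 12 were called lower and 0 higher, where 5.28% and 6.20% of all genes were. The median log2 fold change was -0.08, and 59 of the 85 were negative, against 50.2% of all genes.

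Other targets of NF-kB held all 3 of the calls, among 19 tested (median log2 fold change -0.16, 16 negative, 6 called lower with the date block). The cytokine gene IL6 was at 31.1 and 32.8 CPM in strongly and at 16.4, 18.8 and 20.9 CPM in weakly adherent cells (-0.77 on the log2 scale with an SE of 0.11, adjusted p = 0.0022 in edgeR), and this call stood whichever library was left out. The acute phase gene SAA1 was at 51.7 and 47.2 CPM against 29.5, 31.4 and 36.6 CPM (-0.60 on the log2 scale with an SE of 0.10, adjusted p = 0.0074 in edgeR), and its call was lost when the strongly adherent cells of 6 March were left out (0.069). The chemokine gene CXCL1, named after its values were seen because it completes the count, was at 5.13 and 6.18 CPM against 1.90, 3.27 and 2.86 CPM (-1.08 on the log2 scale with an SE of 0.22, adjusted p = 0.020 in edgeR). Its adjusted p was 0.15 with the strongly adherent cells of 15 March left out, 0.053 with those of 6 March left out and 0.061 with the weakly adherent cells of 15 March left out.

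No gene of the receptor, relay and kinase lists was called without the date block. Of 16 tested interleukin-1 receptor and relay genes, 0 were called by edgeR, 2 had an unadjusted p under 0.05, and DESeq2 and limma-voom called 0 (median log2 fold change -0.04). The co-receptor IL1RAP had -0.28 (SE 0.10, edgeR adjusted p = 0.22) and the adaptor MYD88 -0.19 (SE 0.08, edgeR adjusted p = 0.26). Of 8 further interleukin-1 family and processing genes tested, 0 were called by edgeR, 1 had an unadjusted p under 0.05, and DESeq2 and limma-voom called 0. Among them the inflammasome sensor NLRP3 had -0.47 (SE 0.20, edgeR adjusted p = 0.29) and NLRP1 -0.12 (SE 0.10, edgeR adjusted p = 0.69). Of 18 genes of the IkB kinase and tumour necrosis factor receptor complexes, 0 were called by edgeR, 1 had an unadjusted p under 0.05, DESeq2 and limma-voom called 0, and the date block called 2 lower. The kinase MAP3K14, which drives the alternative route, had -0.24 (SE 0.10, edgeR adjusted p = 0.27) and the adaptor TRAF1 -0.20 (SE 0.10, edgeR adjusted p = 0.40). Neither is among the 2 that the date block called (edgeR adjusted p with the block 0.097 and 0.05).

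The remaining NF-kB and IkB genes went both ways. Of 7, 0 were called by edgeR, 4 had an unadjusted p under 0.05, 2 of them higher, DESeq2 and limma-voom called 0, and the date block called 2 lower. REL, which encodes a further subunit, was at 9.13 and 9.77 CPM in strongly and at 11.4, 13.9 and 12.5 CPM in weakly adherent cells. Its weakly adherent libraries thus lay above both strongly adherent ones, opposite to NFKB2 and RELB (0.41 on the log2 scale with an SE of 0.13, adjusted p = 0.14 in edgeR and 0.069 with the date block). NFKBIE, an IkB protein, had -0.33 (SE 0.11, edgeR adjusted p = 0.17, or 0.00077 with the date block). Of 13 further negative regulators, 0 were called by edgeR, 2 had an unadjusted p under 0.05, and DESeq2 and limma-voom called 0. The gene of a TNFAIP3-binding protein, TNIP1, (-0.23, SE 0.07, edgeR adjusted p = 0.16, or 0.0070 when blocked) and the deubiquitinase gene CYLD (-0.26, SE 0.10, edgeR adjusted p = 0.22, or 0.00018) were called lower with the date block.

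In a list of the ICAM genes and VCAM1, ICAM1 was the gene that was called. Of 5 further tested genes, ICAM2 to ICAM5 and VCAM1, 0 were called by edgeR or had an unadjusted p under 0.05, and DESeq2 and limma-voom called 0. ICAM2 was at -0.24 on the log2 scale (SE 0.13, edgeR adjusted p = 0.46) and ICAM5, at 2.50 to 3.26 CPM in the group means, -0.37 (SE 0.22, edgeR adjusted p = 0.52). The 5 went both ways: 3 had a negative log2 fold change and 2 a positive one, ICAM3 (0.13) and ICAM4 (0.11). Whether ICAM1 differed from these genes was not tested.

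**Figure D5:**
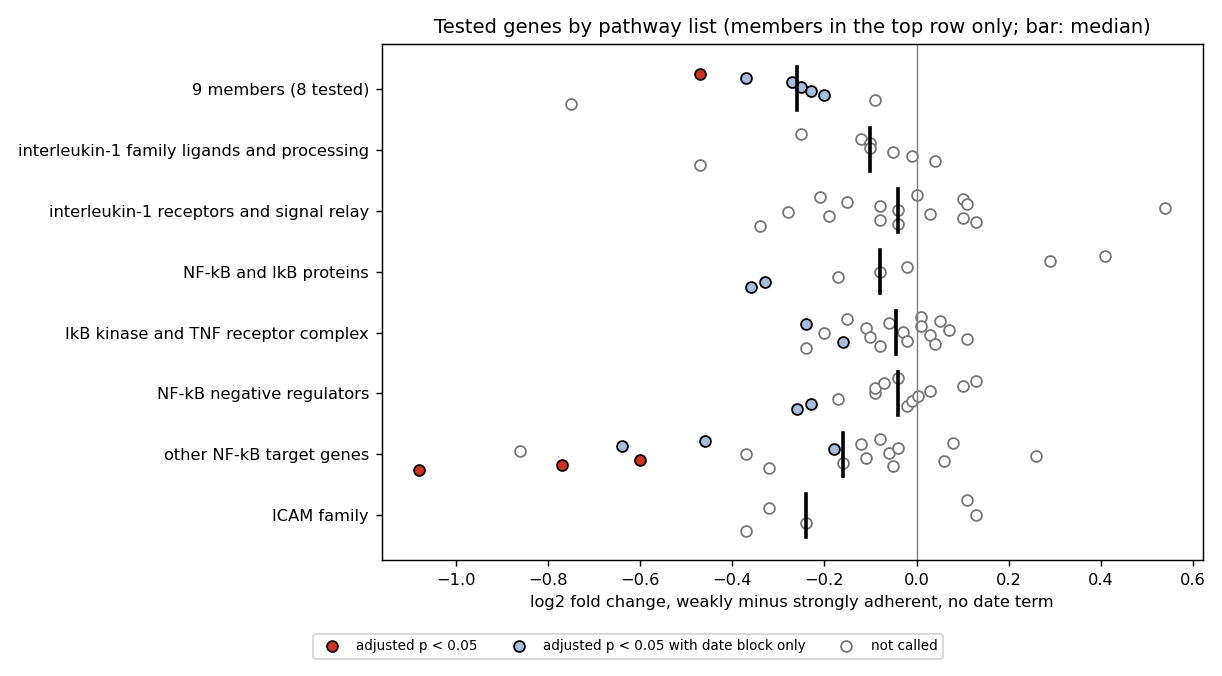
Log2 fold change (x axis, weakly minus strongly adherent, no date term) of each tested gene in 7 pathway lists and of the 8 tested members (top row only); red points were called, blue points were called with the date block only, and black bars are medians. The called genes outside the members all stand in the row of other NF-kB targets.

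Among genes that averaged 2 CPM or more, the keratin gene KRT81 was 1 of the 3 whose pattern over the 5 libraries was most like that of IL1A (root mean square difference 0.102 in log2 CPM). KRT81 averaged 57.3 CPM in strongly and 33.9 CPM in weakly adherent cells. The pattern of IL1A rests on 15 to 35 reads per library, and the measure of likeness takes no account of their counting error. For IL1B, whose pattern is set by libraries of 1 to 13 reads, the nearest genes were FOS (0.999), C1orf110 (1.00) and SERPINB2 (1.02), none of them close. The choice was made among all such genes over 5 libraries and has no test.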

How the data were processed

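RNA was purified on RNeasy columns, made into libraries with a stranded TruSeq kit and read as 50 bp single ends, per the labels' protocols. Tools listed in the submitters' processing notes, with no version, are STAR, HTSeq, DESeq2, cutadapt and FastQC, and the build listed is hg19. For annotation and strand setting, the sources used here give nothing. The authors deposited raw counts per gene, which were tested, and log2 values, which equal log2(count / size factor + 1) to within 0.0152 reads, as checked on the file, and were not tested. HTSeq's 5 total rows, 26.2% to 27.4% of all reads, were left out.

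The test was that of edgeR 4.0.16 under R 4.3.3 (on counts, TMM, filterByExpr, robust quasi-likelihood F test, Benjamini-Hochberg over 13297 genes, 3 residual degrees of freedom, threshold 0.05). Standard errors follow from the F statistic. CPM values are given as mean ± SD. Between replicates of a group, chi-square per degree of freedom was 7.49 to 12.5, so no library repeats another. Dates in the titles pair the libraries of 6 and of 15 March. Their deviations from group means correlated at 0.32 and 0.19, and with 2 strongly adherent libraries these values are not independent. The strongly adherent library of 15 March correlated at 0.15 with the weakly adherent one of 12 March, close to that 0.19. The remaining pairs of unlike dates correlated negatively.

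The members and lists were chosen with earlier results of these data known. Genes named besides the members are the 2 of smallest p in each pathway list and the 3 most like IL1A and IL1B in pattern. Some genes that this rule or the marker lists name are not reported here. Alternatives were limma-voom (limma 3.58.1), DESeq2 1.42.0 with its Wald test, its size factors within edgeR, other filters, the date block, each library left out, and removal of the trend with coding length (GENCODE release 29, known for 88.5% of tested genes, spline with 5 degrees of freedom). Length and motif tables come from GRCh38 by symbol. The fits without a block and between dates were tested on simulated data: changed genes were called with the right sign, but false calls were more frequent than the threshold in every run, so adjusted p-values near 0.05 are less firm than they read. The fit of adhesion with the date block was not simulated.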

Additional observations from a re-analysis of the deposited data

How the results depend on the processing

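Each of the 8 tested members kept its negative sign in all alternatives run, which for all but NFKB1 follows largely from groups that did not overlap. Over all genes, the calls for weakly against strongly adherent cells (122 lower, 235 higher) became 203 lower with no filter on low counts, and 138 lower and 129 higher with the trend with coding length removed. With the date as a block (a pairing by date) they were 702 lower and 825 higher, with 6 members lower, and with the length trend removed as well 693 and 601, again with 6 members lower. With 1 library left out the counts ranged from 34 to 103 lower and from 82 to 238 higher, and members called lower from 0 to 2, against 1. Removing the length trend left ICAM1 called (adjusted p = 0.020), and its adjusted p over all alternatives ran from 6.2e-12 to 0.17. Between the dates, DESeq2's Wald test called 43 genes lower and 158 higher, against 338 and 893 by edgeR, and no library could be left out there, since that leaves no residual degree of freedom. Depth limits IL1A and IL1B, at 1 to 35 reads per library. With the date block, 5 further members passed the threshold, as stated beside each.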

Other observations

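With adhesion as a covariate, 8 of the 85 further pathway genes were called between 15 and 6 March, 5 higher and 3 lower on 15 March (edgeR, 4 libraries, 1 residual degree of freedom), where 6.74% and 2.55% of all genes were, so the count is near that of all genes. The genes are named after their values were seen. IL1R1, the signalling receptor of interleukin-1, was at 19.9 and 19.3 CPM on 6 March and at 28.5 and 28.3 CPM on 15 March in strongly and weakly adherent cells (log2 difference 0.53, SE 0.10, edgeR adjusted p = 3.8e-06), and at 23.1 CPM in the weakly adherent library of 12 March. Between adhesion groups its log2 fold change was -0.04 (edgeR adjusted p = 0.98). IL1RN, the receptor antagonist, SIGIRR, a dampening receptor, and the regulators RNF11 and TNFAIP8 were higher on 15 March too, by 0.48, 0.48, 0.46 and 0.47 on the log2 scale. RELA, the transactivating subunit, had a log2 difference of -0.20 (edgeR adjusted p = 0.041), IRAK1 one of -0.20 (0.037) and NFKBIE one of -0.29 (0.0025). What a date stands for is not given in the labels.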
